A study of Mus musculus with 6 samples.

Results

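The 10 genes described here encode the subunits of the transcription factor NF-kB and the inhibitors and feedback regulators that hold it back. They were taken by symbol from a count table of 47069 genes, and comprised the subunits Nfkb1, Nfkb2, Rela, Relb and Rel, the inhibitors Nfkbia, Nfkbib and Nfkbie, and the feedback genes Tnfaip3 and Birc3. All 10 were listed in the table and all 10 had enough counts to be tested. In mdx myoblasts exposed to PSB-KD107, none of them changed past the threshold in edgeR, and neither did any other gene tested (0% of 14165). DESeq2 called none of the 10 either, but it called 2.96% of the genes it tested. The values of Relb and Nfkbie were lower in every treated library than in every control, and those of the other 8 genes overlapped between the groups, where 15.8% of all tested genes did not overlap.

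NF-kB is a family of dimers built from Rel proteins. Rela, Relb and Rel carry an activation domain, whereas Nfkb1 and Nfkb2 encode the precursors p105 and p100, which are processed to DNA-binding partners. In resting cells the dimers are kept in the cytoplasm by IkB proteins, and signals from receptors such as those for tumor necrosis factor lead the IkB kinase to mark IkB for degradation. The freed dimers then switch on their own inhibitors, among them IkB-alpha (Nfkbia) and the ubiquitin-editing enzyme A20 (Tnfaip3), so that the RNA of these genes is widely read as a trace of NF-kB activity. In muscle, NF-kB is known for its part in inflammation, in wasting and in holding back the differentiation of myoblasts.

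The RNA came from myoblasts of mdx mice, a dystrophin-deficient model of Duchenne muscular dystrophy, so that both groups lack dystrophin. The labels call them satellite or muscle stem cells. According to the methods, the cells were sorted from muscle by Itga7 and Itgb1 with Sca-1, CD45, CD31 and CD11b excluded, came from 3 mice, and were grown in Ham's F10 medium with fetal bovine serum and FGF2. The treated cells received 10 μM PSB-KD107, a synthetic agonist of the receptor Gpr18 that the treatment label abbreviates to PSB-KD-1, and the controls, called untreated in some labels, received vehicle (DMSO in buffer). The labels give 2 days of exposure and the methods 16 h, and the methods describe the study's mdx mice, in the section on injected animals, as C57BL/10 males of 10 weeks, without a separate account of the mice that gave the cells. Each group had 3 libraries, numbered 1, 2 and 4 in the table, and values below are given in that order. The sample records number them 1, 2 and 3, so the libraries numbered 4 are known by group only.

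The libraries held between 30917613 and 48756794 counts. Expression is given as CPM, the counts scaled to a common library total, after TMM normalization, a scaling for library size and composition, and 3 counts amounted to 0.0596 to 0.0962 CPM, which covers counting error only. The 7 myogenic markers (Pax7, Myf5, Myod1, Des, Itga7, Cdh15 and Myog) summed to between 7878 and 8529 CPM with vehicle and between 6942 and 7682 CPM with PSB-KD107. Pax7, a factor of satellite cells (log2 fold change -0.90), and Myog, a factor of differentiation (-0.49), were lower in every treated library than in every control, and the groups of the other 5 overlapped. The 6 macrophage markers summed to 2.39 to 4.90 CPM with vehicle and 0.688 to 6.58 CPM with PSB-KD107, with Adgre1 at 0 in every library. The 4 endothelial markers stayed between 0.310 and 1.40 CPM, and the 5 fibro-adipogenic markers between 1.58 and 10.6 CPM. The 10 members summed to 384 to 450 CPM with vehicle and 374 to 397 CPM with PSB-KD107. In bulk RNA, fewer cells of a type and less RNA per cell cannot be told apart.

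The feedback genes are background examples of NF-kB targets, and the sequences below show where the letters of the NF-kB binding motif occur before the start of 3 members. Promoters of GRCm38.p6 (RefSeq), from 250 bases before to 50 bases after each start site, were matched by symbol for 8 of the 10 members. Nfkb1 and Relb were not matched. The kB consensus, a degenerate motif of 10 bases searched on both strands, occurred in at least 1 promoter of 5 of these 8 genes (Nfkb2, Rel, Nfkbia, Nfkbie and Tnfaip3). It occurred in 4.51% of the 32851 promoters in the table, or for 5.14% of 27025 genes. No match lay in the windows of Rela, Nfkbib and Birc3. A match describes letters and not a bound site. The windows are printed 5′ to 3′ on the gene's strand with the consensus in capitals. They lie on the minus strand at chr12:55492652-55492691 (Nfkbia), on the minus strand at chr11:23771036-23771076 (Rel, where matches of both strands overlap) and on the plus strand at chr17:45555579-45555618 (Nfkbie).
Nfkbia: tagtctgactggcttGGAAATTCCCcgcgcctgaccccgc
Rel: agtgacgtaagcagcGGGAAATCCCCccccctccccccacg
Nfkbie: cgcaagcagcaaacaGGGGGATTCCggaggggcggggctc

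Levels of different genes were compared only per length, as CPM per kb of exon in GENCODE M21. In vehicle-treated myoblasts the most abundant members were Nfkb2, at 20.9 ± 0.283 CPM per kb, Rela, at 19.3 ± 0.911, and Nfkbia, at 18.02 ± 1.86 (mean ± SD, n = 3). Nfkbib followed at 14.2 ± 1.51, Relb at 9.58 ± 0.844, Tnfaip3 at 7.89 ± 2.50 and Nfkb1 at 7.19 ± 0.569 CPM per kb. At the lower end were Nfkbie, at 4.27 ± 0.362, Rel, at 1.51 ± 0.460, and Birc3, at 0.347 ± 0.168 CPM per kb. The ranges of the vehicle libraries overlapped between Rela and Nfkbia, between Relb and Tnfaip3 and between Tnfaip3 and Nfkb1, and no other neighbours in this order overlapped. The span from Nfkb2 to Birc3 was 60.4-fold. With PSB-KD107 the order was the same except that Rela, at 19.9 ± 3.39 CPM per kb, stood above Nfkb2, at 19.1 ± 2.24, with overlapping ranges.

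**Figure D1:**
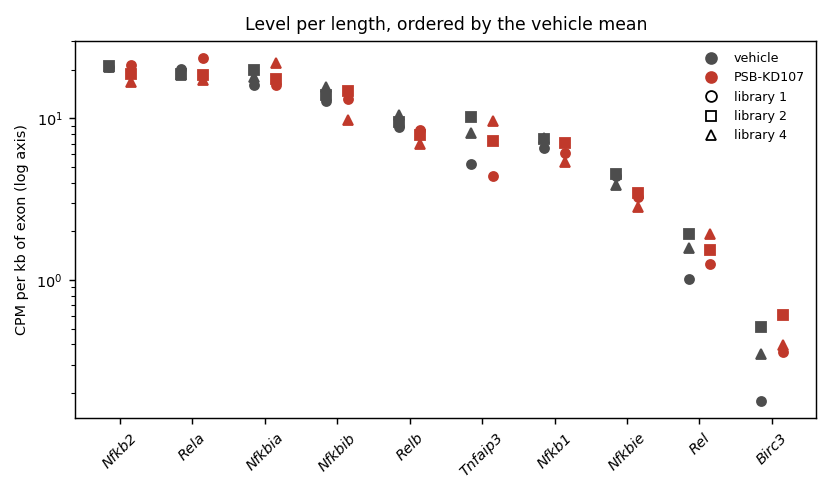
Level of the 10 genes in CPM per kb of exon (log axis), in the order of the vehicle mean, with grey points for vehicle, red points for PSB-KD107 and 1 point per library. The 3 most abundant genes lie near 20 CPM per kb and Birc3 lies below 1 in every library.

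The make-up of the subunit pool was also read per length. Of the summed level of the 5 subunits, Nfkb2 made up 35.8% ± 0.399 and Rela 33.0% ± 2.12 with vehicle, followed by Relb with 16.4% ± 1.24, Nfkb1 with 12.3% ± 0.773 and Rel with 2.57% ± 0.751 (mean ± SD, n = 3). With PSB-KD107 these shares were 35.0% ± 0.149, 36.3% ± 2.295, 14.3% ± 0.397, 11.4% ± 1.46 and 2.96% ± 0.970 in the same order of genes. The share of Relb was 13.8%, 14.6% and 14.4% in the treated libraries and 15.3%, 16.02% and 17.8% in the vehicle libraries, so that the groups did not overlap. The share of Nfkb2 did not overlap either, at 36.1%, 36.0% and 35.4% with vehicle and 35.1%, 35.1% and 34.8% with PSB-KD107, and nor did that of Nfkbie among the 3 IkB genes, at 13.2%, 11.8% and 10.3% against 9.97%, 9.60% and 8.14%. The other 5 of the 8 shares overlapped, and shares of a sum depend on each other. Shares in other sets of genes were not computed, so the 3 without overlap are a description. For CPM, 15.8% of all tested genes did not overlap between the groups. The CPM of Nfkb2 itself overlapped between the groups, with treated library 1 above every control. Among the IkB genes, Nfkbia held 49.4% ± 2.11 of the sum with vehicle and 54.1% ± 8.34 with PSB-KD107, where treated library 4 stood at 63.7% and the other treated libraries at 49.4% and 49.1%. The exon length of Nfkb1, 12061 bp, sums the exons of all its transcripts and was the longest of the 10, which lowers its level per kb where only some of them are used.

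The question of the comparison was whether PSB-KD107 changed the RNA of these genes. In edgeR (quasi-likelihood fit, Benjamini-Hochberg adjusted over 14165 genes), 0 of the 10 members passed an adjusted p-value of 0.05, where 0% of all tested genes did. DESeq2 also called 0 of the 10, where it called 2.96% of the genes it tested. With an unadjusted p-value under 0.05 in edgeR there were 2 lower members (Relb and Nfkbie) and 0 higher, beside 9.4% of all genes, 2.93% lower and 6.47% higher. By sign alone, 4 members had a log2 fold change above 0, as did 49.9% of all genes, and 6 below 0, as did 50.1%. The CPM of the groups did not overlap for the same 2 genes, both lower, where 15.8% of all tested genes did not overlap, 6.59% lower and 9.2% higher. Pax7 and Myog were lower in the same libraries, and their part in these values was not tested. The median log2 fold change of the 10 was -0.15, with a range from -0.42 to 0.39, and the median over all tested genes was -0.00074. Left out in turn, each single library reduced the 2 members at an unadjusted p-value under 0.05 to 1 or 0, and it was 0 without vehicle library 2 and without PSB-KD107 library 4. In these fits 1.33% to 4.89% of all genes were lower at that level. The members without overlap numbered 2 to 4 with a library left out, where 18.9% to 38.3% of all genes did not overlap, and the 4 without PSB-KD107 library 1 stood beside 23.9%.

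**Figure D2:**
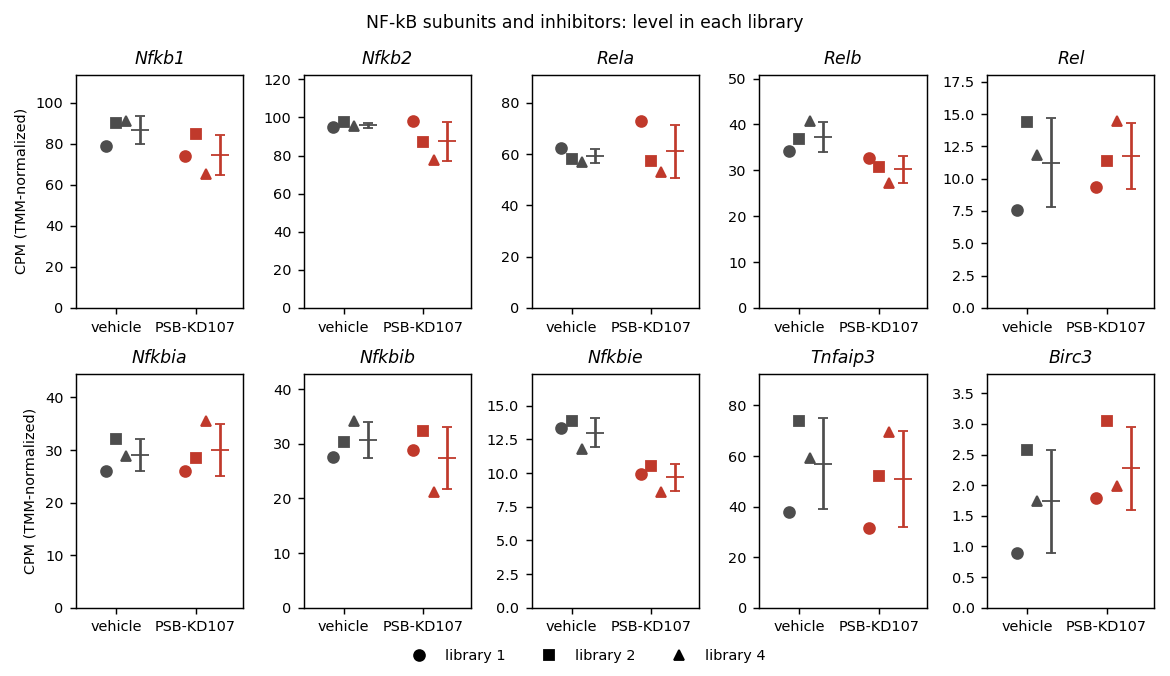
TMM-normalized CPM of each gene in every library, with axes from 0, where circles, squares and triangles mark the libraries numbered 1, 2 and 4 and the bars give the mean ± SD (n = 3). The grey and red points are separated only for Relb and Nfkbie, and Rel, Nfkbia, Tnfaip3 and Birc3 are lowest in library 1 of each group.

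Of the subunits, Relb had the smallest p-value. Relb, on chromosome 7 from 19606217 to 19629438 (GRCm38), pairs with processed Nfkb2 in the non-canonical arm of the pathway. Its level was 34.2, 36.8 and 40.7 CPM with vehicle and 32.8, 30.7 and 27.1 CPM with PSB-KD107. All treated values lay below all vehicle values, although vehicle library 1 and treated library 1 stood only 1.42 CPM apart. The means were 37.2 ± 3.28 and 30.2 ± 2.85 CPM (mean ± SD, n = 3). In log2 units PSB-KD107 differed from vehicle by -0.30 (standard error 0.12, 95% interval -0.60 to -0.0012, Benjamini-Hochberg adjusted p = 0.531 in edgeR and 0.445 in DESeq2). A two-sided exact permutation test gave p = 0.1, the smallest that 3 libraries against 3 allow.

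Nfkb2, the partner of Relb, is on chromosome 19 from 46304320 to 46312385. It was at 94.9, 97.4 and 95.7 CPM with vehicle, which made it the steadiest member among the controls, and at 98.0, 87.0 and 77.5 CPM with PSB-KD107. The treated libraries fell on both sides of the vehicle range, with library 1 above it and the others below. Its fold change in log2 units was -0.13 (standard error 0.11, 95% interval -0.40 to 0.13). The gene overlaps Psd and a non-coding RNA on the opposite strand. The methods name a directional kit for the libraries, but the counting program's use of strand is not given in the sources used here. Reads could therefore be shared with these overlapping genes.

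Nfkb1, on chromosome 3 from 135584655 to 135691547, encodes p105, the precursor of the p50 subunit. Its values were 78.8, 90.4 and 91.0 CPM with vehicle and 74.2, 84.6 and 65.2 CPM with PSB-KD107. Treated libraries 1 and 4 were below every control, and library 2 was within the control range, so that the groups overlapped. The fitted log2 change was -0.22 (standard error 0.13, 95% interval -0.52 to 0.092). Between libraries of equal number, Nfkb1 was lower with PSB-KD107 each time, with log2 differences of -0.086, -0.096 and -0.48. The gene contains the unclassified transcript Gm43430 on its own strand, with which reads could be shared.

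Rela, on chromosome 19 from 5637483 to 5648130, encodes p65, the main activating subunit of the canonical arm. The vehicle libraries gave 62.3, 58.2 and 57.0 CPM and the PSB-KD107 libraries 72.8, 57.2 and 53.1 CPM. Treated library 1 was the highest of the 6 and treated library 4 the lowest, and the difference in the means was small beside this spread. For Rela the log2 change was 0.046 (standard error 0.14, 95% interval -0.29 to 0.39), and without treated library 1 it was -0.12.

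Rel, on chromosome 11 from 23736847 to 23770970, encodes c-Rel, best known from lymphocytes. It was at 7.55, 14.3 and 11.8 CPM with vehicle and 9.38, 11.4 and 14.4 CPM with PSB-KD107. The spread within vehicle was 1.90-fold and contained 2 of the 3 treated values. For Rel the log2 change was 0.062 (standard error 0.29, 95% interval -0.64 to 0.77), so that a change of 1.5-fold in either direction lies inside the interval. Its sign turned without vehicle library 1 (-0.16) and without PSB-KD107 library 4 (-0.12).

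Among the inhibitors, Nfkbie had the smallest p-value, as it did among all 10 genes. Nfkbie, on chromosome 17 from 45555703 to 45563169, encodes IkB-epsilon, an inhibitor that retains Rela and Rel dimers. The vehicle libraries gave 13.4, 13.9 and 11.8 CPM and the treated libraries 9.94, 10.5 and 8.58 CPM. Every treated library was below every control, and treated library 4 was the lowest of all. The means were 13.0 ± 1.10 and 9.68 ± 0.994 CPM (mean ± SD, n = 3). The log2 difference between the groups was -0.42 (standard error 0.16, 95% interval -0.81 to -0.044, Benjamini-Hochberg adjusted p = 0.482 in edgeR and 0.194 in DESeq2). The exact permutation test, two-sided, gave p = 0.1. Between libraries of equal number the log2 differences were -0.43, -0.40 and -0.45, which was the narrowest range of any member.

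Nfkbia, on chromosome 12 from 55489410 to 55492647, encodes IkB-alpha, the inhibitor that is degraded and made again within a round of NF-kB activation. It was at 26.1, 32.0 and 28.9 CPM with vehicle and 26.1, 28.5 and 35.5 CPM with PSB-KD107. The libraries numbered 1 were alike in both groups, and treated library 4 was above the rest. For Nfkbia the log2 change was 0.049 (standard error 0.16, 95% interval -0.33 to 0.43), which spans folds from 0.793 to 1.35. Without PSB-KD107 library 4 the value was -0.091, and without vehicle library 1 it was -0.029.

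Nfkbib, on chromosome 7 from 28758251 to 28767512, encodes IkB-beta, which is degraded and replaced more slowly. Its values were 27.7, 30.4 and 34.2 CPM with vehicle and 28.8, 32.3 and 21.2 CPM with PSB-KD107. Treated libraries 1 and 2 were inside the control range and library 4 was below it. The log2 fold change was -0.17 (standard error 0.18, 95% interval -0.61 to 0.28), and it was -0.010 without treated library 4. Nfkbib overlaps Ccer2 and Sirt2 on the opposite strand, with the same limit on shared reads as for Nfkb2.

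The feedback genes Tnfaip3 and Birc3 varied most. Tnfaip3, on chromosome 10 from 19000910 to 19015657, encodes A20, which cuts and adds ubiquitin chains on the signaling complexes upstream of the IkB kinase. It was at 38.0, 73.9 and 59.1 CPM with vehicle and 31.6, 52.1 and 69.5 CPM with PSB-KD107. Library 1 was the lowest of its group in both cases, as it was for Rel, Nfkbia and Birc3. The range within each group, 1.94-fold and 2.20-fold, was wider than the difference in the means. The myogenic factors Myf5 and Myod1 were also lowest in library 1 of each group, with Myf5 at 3.57 and 4.23 CPM against 18.6 to 40.9 CPM in the other libraries, and their part in the spread of Tnfaip3 was not tested. The log2 fold change was -0.16 (standard error 0.35, 95% interval -1.01 to 0.70). It turned to 0.064 without vehicle library 2 and to 0.081 without PSB-KD107 library 1, and the log2 differences between libraries of equal number were -0.26, -0.50 and 0.23.

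Birc3, on chromosome 9 from 7848699 to 7873186, encodes the ubiquitin ligase cIAP2, which takes part in signaling from the tumor necrosis factor receptors. It was the scarcest member, with raw counts of 35, 90 and 56 under vehicle and of 90, 95 and 72 under PSB-KD107. These correspond to 0.893, 2.58 and 1.74 CPM and to 1.79, 3.05 and 1.98 CPM. All treated libraries were above the vehicle mean of 1.74 CPM, but vehicle library 2 was above treated libraries 1 and 4. The log2 fold change was 0.39 (standard error 0.46, 95% interval -0.72 to 1.49), the least precise of the 10.

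**Figure D3:**
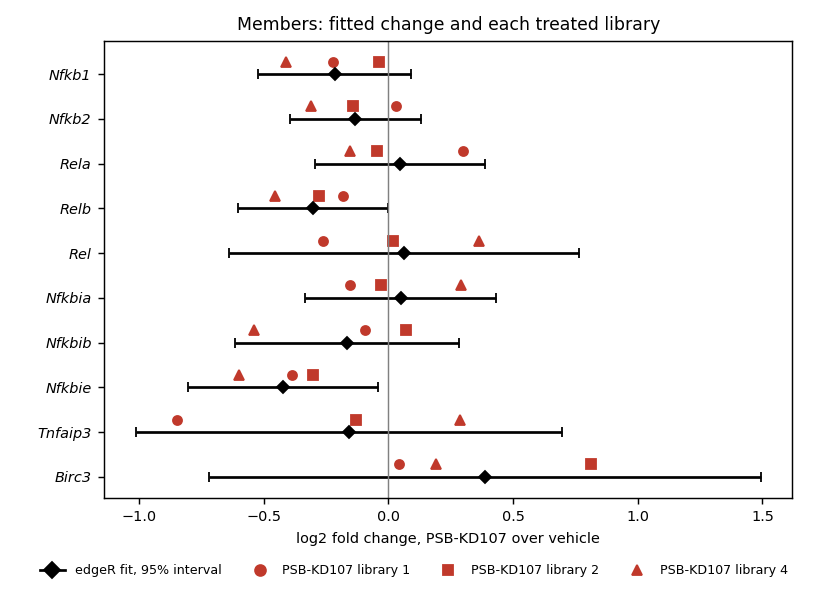
Log2 fold change of each gene from edgeR with its 95% interval (black), and the log2 ratio of each PSB-KD107 library to the vehicle mean (red, 1 symbol per library). The intervals of Relb and Nfkbie lie below 0, that of Relb ending at -0.0012, and the treated libraries stand on both sides of 0 for 6 genes.

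Each treated library was also set alone against the vehicle mean. In PSB-KD107 library 1, the log2 ratios ran from -0.85 for Tnfaip3 to 0.30 for Rela. In library 2 they ran from -0.30 for Nfkbie to 0.81 for Birc3, and in library 4 from -0.60 for Nfkbie to 0.36 for Rel. Treated library 4 was the lowest of the 3 for Nfkb1, Nfkb2, Rela, Relb, Nfkbib and Nfkbie and the highest for Rel, Nfkbia and Tnfaip3. All 3 treated libraries were below the vehicle mean for 3 members (Nfkb1, Relb and Nfkbie), as they were for 21% of all tested genes, and above it for 1 (Birc3), as for 18.3%. Compared between libraries of equal number, the same 3 genes were lower each time, where 21% of all genes were, and Birc3 was higher each time, where 20.9% were. The replicate numbers were not shown to pair the libraries, so these differences are a description.

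The wider pathway was read from lists of genes written from general knowledge, but with earlier results of these data known. The counts from these lists are therefore a description. The list of kinases, adaptors and ubiquitin ligases upstream of IkB had 24 genes, all tested, with a median log2 fold change of 0.027. In edgeR 0 of them passed after adjustment. At an unadjusted p-value under 0.05 there was 1 higher gene and 1 lower, beside 6.47% and 2.93% of all genes. The higher was Ikbkg, the regulatory subunit NEMO of the IkB kinase, at 60.6, 59.5 and 58.2 CPM with vehicle and 76.5, 70.7 and 65.9 CPM with PSB-KD107 (log2 fold change 0.26, standard error 0.09). The lower was Btrc, part of the ligase that recognises phosphorylated IkB, at 49.5, 66.5 and 68.4 CPM and 40.3, 52.9 and 44.1 CPM (log2 fold change -0.43, standard error 0.17). The groups were separate for Ikbkg and overlapped for Btrc.

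Of 12 receptors, 10 were tested, with a median log2 fold change of 0.13, 0 called after adjustment, and 2 with an unadjusted p-value under 0.05, both higher. These were Toll-like receptors. Tlr2, which senses bacterial lipoproteins, was at 1.45, 1.72 and 1.27 CPM with vehicle and 2.56, 2.69 and 5.70 CPM with PSB-KD107, a log2 fold change of 1.30 (standard error 0.40). Tlr4, the receptor for lipopolysaccharide, was at 33.3, 31.9 and 31.8 CPM and 41.6, 36.8 and 38.2 CPM, a log2 fold change of 0.27 (standard error 0.10). Neither gene's groups overlapped, where 9.2% of all tested genes were higher without overlap. Of 15 other regulators, 13 were tested, with a median of -0.0041 and 0 called. The smallest p-values were those of Nfkbiz, an atypical nuclear IkB, with 13.4, 14.6 and 11.5 CPM against 33.7, 15.1 and 22.1 CPM, and Tnip2, a partner of A20, with 9.92, 9.19 and 8.87 CPM against 13.7, 10.5 and 12.7 CPM. Nfkbiz differed by 0.84 in log2 units (standard error 0.30) and Tnip2 by 0.40 (standard error 0.16). Of the tested regulators only Nfkbiz had an unadjusted p-value under 0.05, beside 6.47% of all genes that were higher at that level.

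The list of NF-kB target genes outside the 10 had 38 entries, of which 27 were tested. Of these, 21 had higher and 6 lower means with PSB-KD107, and their median log2 difference was 0.36. An unadjusted p-value under 0.05 in edgeR was reached by 10 higher genes and 1 lower gene, beside 6.47% and 2.93% of all genes. The adjusted p-value in edgeR was above 0.05 for all 27. For 5 of the 27 (Ccl5, Il6, Nos2, Mmp9 and Saa3) at least 1 vehicle library was below the level the filter asks for, so that the count of higher genes is a description of what passed the filter. Of the other 22 targets, 17 had a higher and 5 a lower mean with PSB-KD107 (median log2 difference 0.28). Among these 22, an unadjusted p-value under 0.05 was reached by 7 higher genes and 1 lower gene. Cx3cl1, the membrane-bound chemokine fractalkine, had the smallest p-value, with 26.3, 35.6 and 32.1 CPM with vehicle and 8.27, 16.8 and 13.4 CPM with PSB-KD107 (log2 fold change -1.29, standard error 0.28). Ier3, an early response gene that modulates survival, was at 5.36, 4.61 and 3.20 CPM and 24.2, 7.31 and 21.5 CPM (log2 fold change 2.01, standard error 0.48). The groups did not overlap for either gene.

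DESeq2 called 4 of the target genes after adjustment, of which 3 were higher, beside 2.25% of all genes, and 1 lower, beside 0.716%. Besides Cx3cl1 and Ier3 these were Ptgs2 and Cxcl10, which were chosen after their values were seen. Ptgs2, the inducible cyclooxygenase, was at 4.06, 1.52 and 1.43 CPM with vehicle and 38.0, 7.41 and 11.3 CPM with PSB-KD107. By qPCR the study reported lower Ptgs2 RNA in muscle of mdx mice injected with PSB-KD107, a different tissue and duration. Cxcl10, a chemokine that interferons also induce, was at 0.587, 0.516 and 0.403 CPM and 4.63, 0.738 and 29.2 CPM, so that its size rested mainly on treated library 4. The log2 fold changes in edgeR were 3.01 for Ptgs2 and 4.51 for Cxcl10 (standard errors 0.78 and 1.32, adjusted p = 0.326 and 0.382). For Ptgs2 the value was 1.98 without PSB-KD107 library 1 and 3.68 without vehicle library 1, and for Cxcl10 it was 2.42 without PSB-KD107 library 4. The DESeq2 calls of Cx3cl1, Ptgs2 and Ier3 were lost without vehicle library 2 and without vehicle library 4, that of Ier3 also without PSB-KD107 library 1, and that of Cxcl10 without vehicle library 1 or PSB-KD107 library 4 (adjusted p between 0.0540 and 0.101 in these fits). When libraries were left out in turn DESeq2 called between 2 and 7 of the targets, with 2 without vehicle library 2 or 4 and 7 without PSB-KD107 library 2. The targets as a list summed to 547 to 604 CPM with vehicle and 641 to 794 CPM with PSB-KD107. Genes with many counts weigh most in this sum, among them Tnfaip2, with means of 58.0 and 106 CPM. Of the 27 tested targets, 6 had lower means with PSB-KD107. The list is not specific to NF-kB, since several of its genes respond to other factors.

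**Figure D4:**
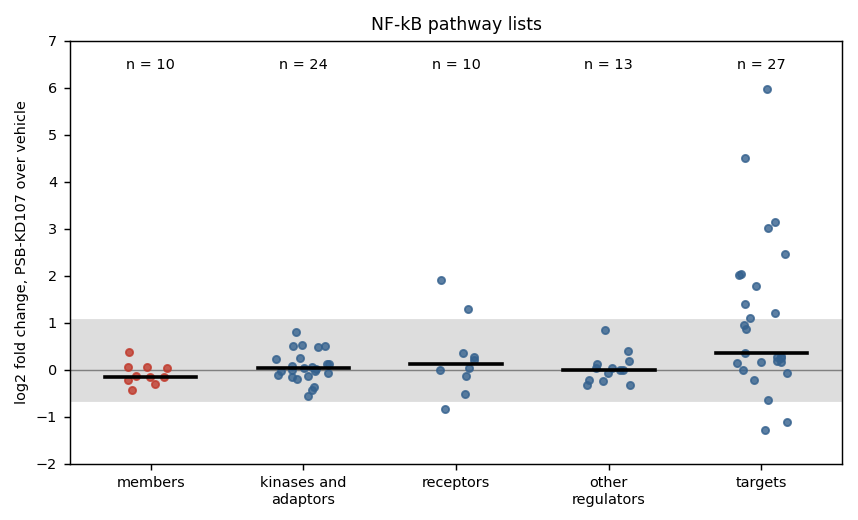
Log2 fold change (PSB-KD107 over vehicle) of each tested gene in the 10 members and in 4 lists of the pathway, with a black line at each median and 1 point per gene. The grey band spans the central 90% of all tested genes, from -0.66 to 1.05, and all 10 members lie inside it. The tested targets reach from -1.29 to 5.98, where the upper end is Nos2, which passed the filter only through the treated libraries, and the targets above the filter's level in every vehicle library end at 4.51.

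The study names Trib3, a pseudokinase, and Nr4a1, an orphan nuclear receptor, as proteins that can inhibit NF-kB signaling. Trib3 was at 4.44, 2.49 and 2.57 CPM with vehicle and 56.4, 36.6 and 34.8 CPM with PSB-KD107. The groups were far apart, 3.75 log2 units between them (standard error 0.34, Benjamini-Hochberg adjusted p = 0.0738 in edgeR and 1.2e-24 in DESeq2). Nr4a1 was at 8.90, 6.27 and 4.16 CPM and 12.3, 7.47 and 24.5 CPM, with treated library 2 inside the control range. The difference was 1.20 log2 units (standard error 0.50, adjusted p = 0.540 in edgeR and 0.246 in DESeq2). The study counts Nr4a1 among its upregulated genes. RNA-seq does not measure the location and phosphorylation of proteins.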

How the data were processed

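Reads from poly(A) RNA of mdx myoblasts (paired ends) were mapped by the authors with STAR, and the deposited values are raw counts per gene, without normalization. The counting program, its annotation and its strand setting are not given in the sources used here. The members and the gene lists were chosen with earlier results of these data known. Low counts were removed by filterByExpr at its defaults in edgeR 4.0.16 (R 4.3.3), which kept 14165 of 47069, scaled by TMM, and tested by glmQLFit and glmQLFTest without covariates, with Benjamini-Hochberg adjustment and a threshold of 0.05. The standard error is the log2 fold change divided by the root of F. DESeq2 1.42.0 was an alternative, beside RLE factors, no filter, replicate blocks and each library left out. Named genes were all members, the 2 genes with the smallest p-values in each list, Trib3 and Nr4a1. Nothing says that same-numbered libraries share a mouse. If the groups do share mice, their libraries are not independent, which the fit without covariates does not take into account. P-values measure the spread between these libraries. The methods name 3 mice without saying which library came from which mouse, so whether this is a spread between independent animals is not known. Coordinates and exon lengths are from GENCODE M21 (GRCm38), promoters from RefSeq, read with Python 3.11.15. The scripts were tested on simulated counts.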

Additional observations from a re-analysis of the deposited data

How the results depend on the processing

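With RLE factors and with each library left out, 0 genes and 0 members were called by edgeR. Over all genes, 8 were called without a filter on low counts, 410 by DESeq2 (160 to 768 with each library left out) and 639 by DESeq2 with the replicate block of the table's numbers over 6 libraries. The replicate numbers were not shown to pair the libraries, as the deviations from the group means correlated by 0.63, 0.50 and -0.13 for numbers 1, 2 and 4. PSB-KD107 library 2 correlated more with vehicle library 4, by 0.64, than with vehicle library 2. When the number was fitted as a replicate block to the 4 libraries that carry 1 or 2, which leaves 1 degree of freedom, edgeR called 2456 genes, 1 member (Tnfaip3, log2 fold change -0.39, adjusted p = 0.0188), 4 upstream genes, 2 receptors, 1 regulator and 18 targets. Over 6 libraries the block gave 0 genes in edgeR. The targets called numbered 4 in DESeq2 (2 to 7 with each library left out) and 6 in DESeq2 with the block.

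The members lower at an unadjusted p-value under 0.05 numbered 0 without a filter, 1 with the block over 6 libraries in edgeR and in DESeq2, 0 on the 4 libraries without a block (chosen after seeing the data), and 0 to 1 with each library left out, and those without overlap numbered 2 to 4. Of 130 fits of the members' fold changes, 116 kept their sign and side of the threshold, 13 turned their sign and 1 passed it. With the block on 4 libraries, Rel was -0.016, Nfkbia -0.087 and Nfkbib 0.072, and on the same libraries without it -0.078, -0.094 and 0.072. With each library left out, the log2 fold change ranged from -0.12 to 0.14 for Rela, -0.16 to 0.27 for Rel, -0.091 to 0.13 for Nfkbia and -0.45 to 0.081 for Tnfaip3 in edgeR, and from -0.11 to 0.12, -0.17 to 0.26, -0.11 to 0.13 and -0.46 to 0.085 in DESeq2. The cause of these shifts was not tested. Depth limits Birc3 most, which rests on 35 to 95 counts a library.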

Other observations

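Of the NF-kB targets, 11 had too few counts to be tested. Their mean CPM was higher with PSB-KD107 for 7, lower for 2 (Il1a and Cd83) and 0 in every library for 2 (Csf2 and Mmp3). The genes given here were chosen after their values were seen. Cxcl2, a neutrophil chemokine, was counted 0, 2 and 1 times under vehicle (libraries 1, 2 and 4) and 30, 9 and 1 times under PSB-KD107. Lcn2, an iron-sequestering protein of the acute phase, had 0 counts in each vehicle library and 19, 4 and 0 counts with PSB-KD107. Traf1, an adaptor of the tumor necrosis factor receptors, had 3, 2 and 1 counts with vehicle and 3, 2 and 25 counts with PSB-KD107. Treated library 1 held most of the counts of Cxcl2 and Lcn2, and treated library 4 those of Traf1. Tnf had 0 counts in each vehicle library and 3, 0 and 5 with PSB-KD107. Cd83, a marker of mature dendritic cells, went the other way, with 9, 5 and 3 counts with vehicle and 1, 4 and 2 with PSB-KD107.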
